A study of Mus musculus with 10 samples.

Results

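The regions described here were the very wide stretches of open chromatin in muscle stem cells of young mice after prostaglandin E2 (PGE2), each at least 4000 bp long without a break. They were chosen by their widths, which come from the young list itself, by joining the rows of that list that touch or overlap. Of 131656 young regions, 652 met the rule. Their widths and the folds of their young summits are therefore a description and carry no test. The assay was ATAC-seq, which maps open chromatin by the sites a transposase can reach. The cells were sorted as α7-integrin and CD34 positive, the surface pair used to isolate the stem cells of skeletal muscle.

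The 2 groups used were PGE2-treated cells of aged C57BL/6 mice, 20 to 25 months old (3 libraries), and PGE2-treated cells of young C57BL/6 mice, 8 to 20 weeks old (2 libraries). All cells spent 2 h in DMEM with serum and bFGF, the agent being added when they were seeded, so both groups share the sort, the growth factor and the treatment. The vehicle libraries of the study were not analysed here, and what PGE2 itself changed cannot be told apart from what the sort and culture left. The data were 1 list of accessible regions per age, with no value per library. Differences between the ages therefore have no replicate error and no p-value, and every interval given is exact at 95%, covers counting over regions only, and does not stand for mice. The number of reads behind each list is unknown. Folds over background are the authors' and belong to each list, so they are not compared between ages.

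As background, promoters in use are usually open over a short stretch of bases. Stretches of several kilobases occur where nucleosomes are displaced across a promoter, its neighbouring enhancers and sometimes the whole of a short, heavily transcribed gene, and such stretches are known from genes that set cell identity and from genes switched on fast by stress. Muscle stem cells switch on the immediate early genes, among them the AP-1 factors Fos and Jun, when they are taken out of the muscle. PGE2 is a lipid signal of injured tissue, and its receptors EP2 and EP4 raise cAMP, which acts on promoters through the cAMP response element (CRE).

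The promoter sequences below belong to 5 of the 10 widest regions and show what lies just before a gene start inside each of them. Each is the 250 bases before a start annotated by RefSeq on GRCm38.p6, the build of the lists, read 5′ to 3′ on the gene's strand. Capitals mark matches, on either strand, to the CRE (TGACGTCA), its core (TGACG), the CCAAT box, the GC box (GGGCGG) or the NF-κB site. A core inside a full CRE is marked once with it, and neighbouring matches can run together. The Errfi1 stretch, chr4:150854820-150855069 on the plus strand, holds a full CRE, and its strongest young summit lay 153 bp from the start. Gpx3 is at chr11:54902604-54902853 (plus), Btg1 at chr10:96616751-96617000 (plus), Sdc4 at chr2:164443189-164443438 (minus) and Bcl6 at chr16:23988853-23989102 (minus). In Sdc4 the NF-κB match runs directly into a GC box.
Errfi1: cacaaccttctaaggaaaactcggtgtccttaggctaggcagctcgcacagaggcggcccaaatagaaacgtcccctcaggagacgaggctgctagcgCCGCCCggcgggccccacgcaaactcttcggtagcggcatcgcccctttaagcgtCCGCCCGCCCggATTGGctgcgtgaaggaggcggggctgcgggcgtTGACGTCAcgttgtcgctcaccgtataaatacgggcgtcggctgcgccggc
Gpx3: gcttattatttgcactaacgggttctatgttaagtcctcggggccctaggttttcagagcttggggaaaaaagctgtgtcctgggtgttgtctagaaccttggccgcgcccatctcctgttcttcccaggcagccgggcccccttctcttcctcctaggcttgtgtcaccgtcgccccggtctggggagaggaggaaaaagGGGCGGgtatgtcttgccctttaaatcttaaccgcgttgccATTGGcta
Btg1: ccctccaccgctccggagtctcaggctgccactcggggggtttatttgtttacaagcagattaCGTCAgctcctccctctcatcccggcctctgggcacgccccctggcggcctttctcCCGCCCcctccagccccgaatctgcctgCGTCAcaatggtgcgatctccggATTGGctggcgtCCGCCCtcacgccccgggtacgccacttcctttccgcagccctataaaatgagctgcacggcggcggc
Sdc4: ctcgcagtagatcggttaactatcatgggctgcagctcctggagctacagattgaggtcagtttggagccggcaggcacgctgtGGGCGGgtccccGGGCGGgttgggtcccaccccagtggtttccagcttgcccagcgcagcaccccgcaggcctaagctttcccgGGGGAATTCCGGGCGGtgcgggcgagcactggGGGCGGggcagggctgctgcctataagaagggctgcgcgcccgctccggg
Bcl6: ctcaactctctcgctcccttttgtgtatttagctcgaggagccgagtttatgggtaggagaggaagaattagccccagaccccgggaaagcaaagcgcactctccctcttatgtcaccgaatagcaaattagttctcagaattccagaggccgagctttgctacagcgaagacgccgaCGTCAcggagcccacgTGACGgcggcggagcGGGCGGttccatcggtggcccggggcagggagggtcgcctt

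Promoters inside the wide regions were rich in G and C. Over the 446 annotated promoters of 359 genes that start in a wide region, the median GC content of the 250 bases was 64.8% and the median number of CpG pairs 18. The medians were 60.8% and 16 over 12586 promoters in other young regions, and 46.4% and 2 over 8231 promoters in no young region. The GC box stood in 71.1% of wide-region promoters, against 61.6% of those in other young regions and 42.6% of all 21263. The full CRE was found in 2.24% of wide-region promoters, 2.78% of those in other young regions and 1.92% of all. The core TGACG was found in 29.6%, 27.0% and 20.2% of the same sets. The AP-1 motif (TGANTCA) was found in 4.26%, 4.30% and 6.13% in the same order. The CCAAT box was in 33.0%, 35.5% and 35.4%, the E-box CAGCTG in 11.2%, 12.0% and 12.1%, and the paired heat shock element GAANNTTC in 4.04%, 4.69% and 6.17%. The NF-κB site was in 9.64%, 4.65% and 4.18%, and the CArG box, which binds serum response factor, in 2.47%, 1.07% and 1.39%. These are matches of letters in 1 window per start and were not tested.

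The labelled cell type was checked against its markers. Of 32 muscle stem cell identity and quiescence genes, 31 had an aged region at their start, all but Ncam1, and 32 had a young one. Endothelial markers had one for 2 of 10 genes in the aged list and 5 in the young list, immune markers for 1 and 2 of 10, and genes of other organs for 2 and 2 of 18. Fibroblast markers had one for 6 of 10 in both lists, smooth muscle and pericyte markers for 9 and 10 of 10, and glial markers for 6 of 10 in both. Over all protein-coding genes the shares with a region at the start were 58.5% in the aged list and 61.4% in the young list. The fibroblast and glial counts are near that level, and the smooth muscle and pericyte counts are above it. A region at the start therefore did not set muscle stem cell genes apart from smooth muscle and pericyte markers. The part of cells other than muscle stem cells in the wide regions was not tested. Among these marker genes of other cell types, Col3a1 and Cd68 start in a wide young region.

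The wide regions made up 3.80% of the length of the young list and 3.37% of its summits. Their median width was 4794.5 bp (quartiles 4301.75 and 5649.5) and their range 4002 to 23450 bp. Each held a median of 12 separate summits (range 5 to 64), or 2.54 per kb, and neighbouring summits lay a median of 339 bp apart. Summits per kb of all regions together were 2.55 for the wide regions, against 2.46 for young regions of 2000 to under 4000 bp and 2.45 for those of 1000 to under 2000 bp. The strongest summit of a wide region had a median fold of 67.2 over background (range 3.74 to 919). In 158 regions (24.2%) it reached 100-fold or more, and in 18 (2.76%) it stayed under 10-fold. The narrowest members were at S100a10 (4002 bp), Mdfic (4004 bp) and Ube2d3 (4006 bp). Just under the limit lay regions at Tsc22d2 (1 bp short of it), Agpat1 and Rnf5 (3998 bp) and Mogat1 (3996 bp), which were 97.5%, 89.0% and 82.0% covered by the aged list.

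Nearly all wide regions were open in aged cells over at least part of their length. Of the summed length of the wide regions, 86.7% lay in aged regions. That pooled share was 85.9% for young regions of 2000 to under 4000 bp and 71.2% for all young regions. The aged list overlapped 651 of the 652 wide regions (99.8%, interval 99.1 to 99.996), where 71.8% of all young regions were overlapped. Near-complete overlap was not particular to the wide regions. It was 99.85% among young regions of 2000 to under 4000 bp and 99.45% among those of 1000 to under 2000 bp. The median share of a wide region's length covered by aged regions was 90.1% (interval of the median 89.4 to 90.8, quartiles 83.2 and 94.9). It was 88.5% for young regions of 2000 to under 4000 bp, 84.1% for those of 1000 to under 2000 bp and 58.9% for those under 1000 bp. In all, 327 wide regions (50.2%, interval 46.2 to 54.1) were at least 90% covered, against 24.4% of all young regions, and 12 (1.84%, interval 0.955 to 3.19) were under 50% covered, against 36% of all. Those at least 90% covered numbered 243 (37.6%) with both lists limited to an equal number of their strongest regions. They numbered 445 (42.0%) with rows within 200 bp merged. The count under 50% was 36 (5.57%) and 41 (3.87%) in the same order. Without regions within 50 kb of another it was 2 (0.393%). On the lists as deposited, the shares at least 90% and under 50% covered were 44.0% and 1.85% among regions of 2000 to under 4000 bp. Coverage barely followed width or height within the wide regions. Over the 652 regions, which share both lists, Spearman's rho was -0.02 between width and coverage and 0.09 between strongest fold and coverage. Along the genome the median per autosome ran between 85.0% and 93.9%.

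**Figure D1:**
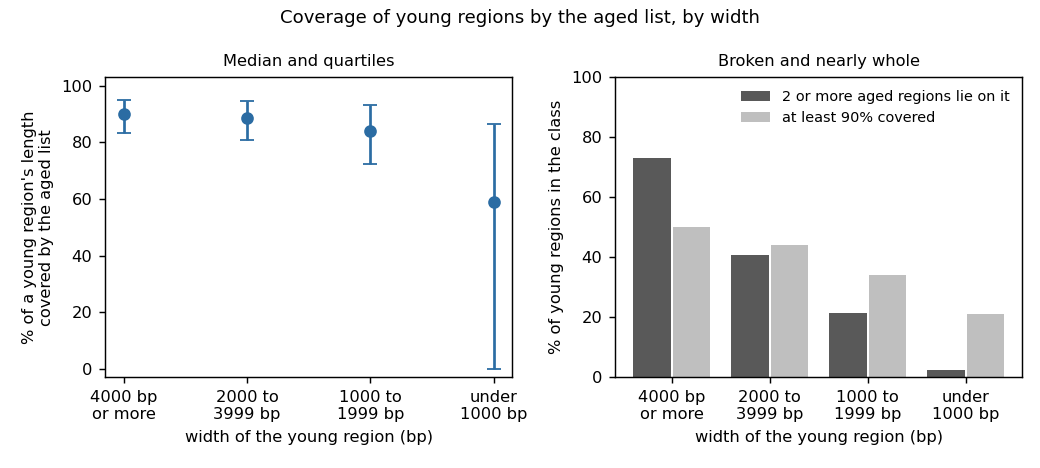
Coverage of young regions by the aged list in 4 classes of width, the widest on the left. Left, median (point) and quartiles (bars) of the percent of a region's length covered; right, the percent of regions on which 2 or more aged regions lie (dark) and that are at least 90% covered (light). Regions of 4000 bp or more have a median of 90.1%, and 73.2% of them carry 2 or more aged regions.

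The lists differed in continuity over the wide regions, which the rule takes as unbroken in the young list. A break could therefore show in the aged list alone. There, most of the wide regions appeared as 2 or more separate pieces. At least 2 aged regions lay on 477 of the 652 (73.2%, interval 69.6 to 76.5), against 7.76% of all young regions and 40.8% of those of 2000 to under 4000 bp. A wide region carried a median of 2 aged regions (range 0 to 20), and 66 regions (10.1%) carried 5 or more. The widest aged piece had a median width of 3429 bp and took up a median of 66.9% of the young region. Gaps inside the region made up the larger part of the uncovered bases, since the edges held 43.3% of them. The edges held 70.8% in regions of 2000 to under 4000 bp and 85.1% in those of 1000 to under 2000 bp. Only a region with 2 or more aged pieces can have a gap inside it. The edge share is therefore not separate from the counts of pieces. The longest stretch without an aged region had a median of 267 bp. An aged region of 4000 bp or more overlapped 228 of the wide regions (35.0%, interval 31.3 to 38.8), against 0.22% of all young regions. When the 652 widest aged regions were used instead, the count was 353 (54.1%). The rule takes regions for being wide in the young list, so the same rule was turned round. Of the 247 aged regions of 4000 bp or more, 229 (92.7%) overlapped a wide young region. Their median coverage by the young list was 100%, and 2 or more young regions lay on 28 of them (11.3%). The aged list was also shorter, at 215838 rows against 265507 in the young list, and the part of that difference in the breaks was not tested.

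Where the aged list left gaps, the young summits were weak. Of 8938 summits in the wide regions, 971 lay outside aged regions, and 908 of these (93.5%) had a young fold under 5. Most weak summits still lay in aged regions, at 1678 of the 2586 under 5-fold (64.9%). The same shares over the summits of all young regions are not given here. The strongest summit of a region lay in an aged region in 650 of 652 cases (99.7%), against 70.2% over all young regions. The share was 98.9% for summits ranked 2 to 5 within their region, 91.2% for ranks 6 to 10 and 73.9% for lower ranks. Every one of the 943 summits of 50-fold or more lay in an aged region, as did 3273 of 3275 of 10-fold to under 50-fold. The strongest aged summit lay within 100 bp of the strongest young one in 532 regions (81.6%). The share over all young regions is not given here, so this closeness cannot be called particular to the wide regions. Aged regions of the strongest 10% of their list overlapped 522 wide regions (80.1%), against 9.04% of all young regions.

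Most wide regions were promoters. A protein-coding gene start lay in 448 (68.7%, interval 65.0 to 72.3), against 9.84% of all young regions and 59.7% of those of 2000 to under 4000 bp. Where no oriented start was to hand, both ends of the gene were taken. With annotated, oriented starts alone the count was 333 (51.1%). Another 122 regions (18.7%) lay inside or across a gene without holding its start, 8 lay within 1 kb of a start, 61 had their nearest gene start within 100 kb and 13 had none within that distance. Coverage by the aged list was close in regions with a start (median 90.6%) and without one (88.5%).

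The open stretch ran mostly into the gene. Over the 333 regions with an oriented start, it reached a median of 3251 bp downstream and 1689 bp upstream of the start. The downstream arm was the longer in 258 of 333 (77.5%), against 67.0% of regions of 2000 to under 4000 bp and 69.9% of those of 1000 to under 2000 bp. In 34 regions (10.2%) it ran past the end of the gene. The strongest summit lay within 500 bp of the start in 223 (67.0%) and in 87.1% of regions of 2000 to under 4000 bp, and in Sdc4 it lay 10212 bp away. Aged regions covered 86.0% of the downstream arm and 91.3% of the upstream arm, and 331 of 333 starts themselves. Lower coverage downstream was not particular to the wide regions. The arms were covered at 85.8% downstream and 88.6% upstream in regions of 2000 to under 4000 bp. In those of 1000 to under 2000 bp the shares were 81.1% and 83.0%. At 2 kb downstream of the start 68.2% of genes had an aged region and 82.6% a young one. At 2 kb upstream the shares were 33.9% in the aged list and 38.4% in the young list.

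**Figure D2:**
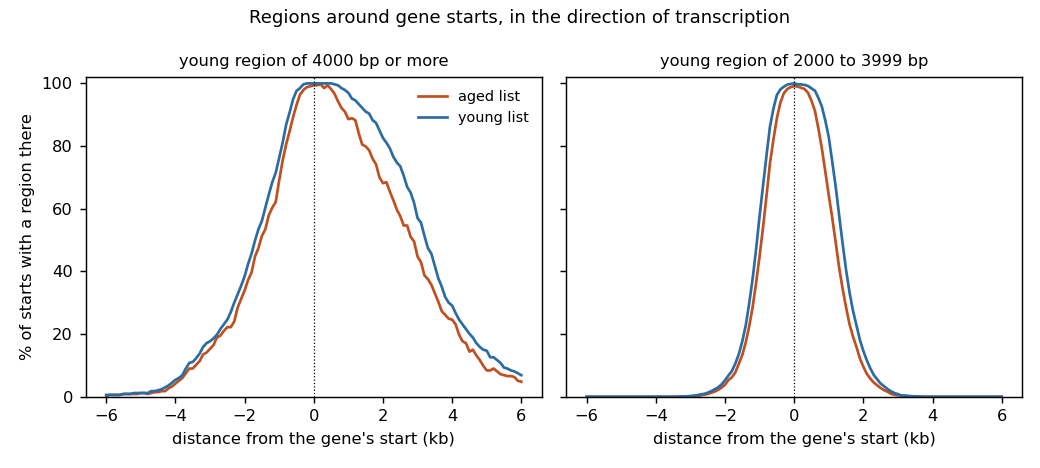
Percent of gene starts with a region in the aged list (orange) and the young list (blue) at each distance from the start, in kb along the direction of transcription; left, the 333 starts in young regions of 4000 bp or more, right, 3300 starts in those of 2000 to under 4000 bp. The young curve is 100% at 0 by the choice of starts, and the aged curve is lower than the young one by more downstream than upstream in the left panel (68.2% and 82.6% at 2 kb downstream).

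The widest region of all lay over Errfi1, an inducible inhibitor of the EGF receptor family. It ran for 23450 bp at chr4:150854106-150877555 with 64 summits. It reached from 964 bp before the start used above to beyond the end of the gene. The annotated gene span begins 1274 bp before that start, outside the region. Aged regions covered 56.4% of it in 20 pieces, the widest of 3353 bp, and the strongest summits of the lists lay apart. The aged one (35.9-fold in its list) lay 16906 bp from the young one (77.7-fold in its list). Of its 64 young summits, 44 lay in an aged region. Next came the region over Neat1, a long noncoding RNA that builds the nuclear bodies called paraspeckles, at chr19:5833296-5850859, with 17564 bp, 47 summits and 88.0% coverage. The region over the start of Cd63, a tetraspanin of late endosomes, with Bloc1s1 and Rdh5 beside it, was 15336 bp wide and 72.6% covered, by 7 aged regions.

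The others among the 10 widest were covered above 90%. Gpx3, a secreted glutathione peroxidase, had 14650 bp and 36 summits, 93.4% covered. Btg1, which restrains proliferation, had 14053 bp with a 214-fold strongest summit, and 94.7% of it lay in 3 aged regions. Sdc4, the cell surface proteoglycan syndecan-4 that marks muscle stem cells, had 14017 bp, 90.9% covered in 7 pieces of at most 3932 bp. Trib1, a pseudokinase, had 13505 bp (94.8%), and the transcriptional repressor Bcl6 13450 bp (92.8%). Regions inside Sfi1 on chromosome 11 (15952 bp) and across Mroh2a and Hjurp on chromosome 1 (17390 bp) were covered without a gap by 1 aged region each.

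**Figure D3:**
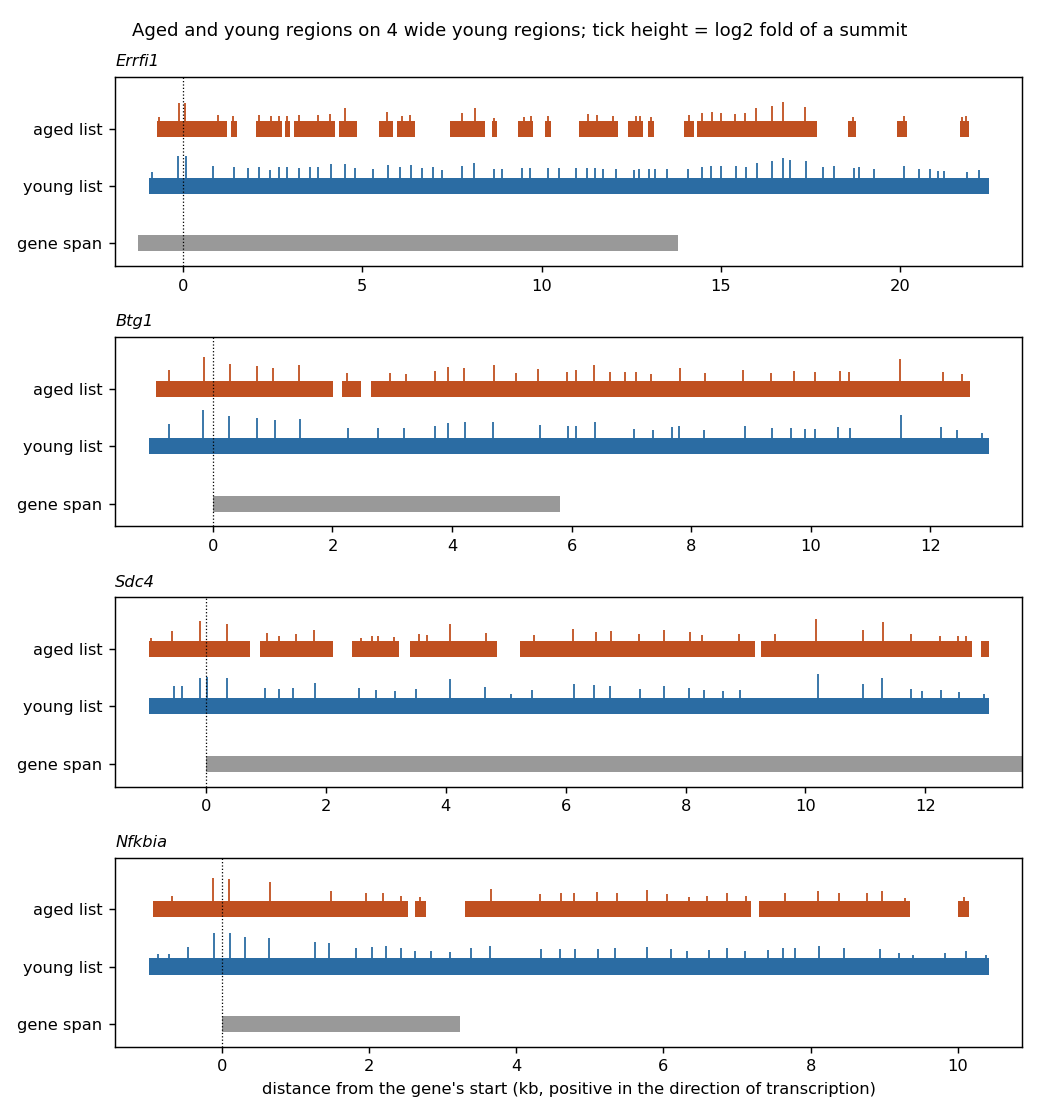
Aged regions (orange, top row), the young region (blue, middle row) and the gene span (grey, bottom row) at Errfi1, Btg1, Sdc4 and Nfkbia, by distance in kb from the gene's start; tick height is the log2 fold of each summit within its own list. The single young region at Errfi1 corresponds to 20 aged regions, at Btg1 to 3, at Sdc4 to 7 and at Nfkbia to 5.

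Immediate early genes were the group most often found in wide regions among the 18 lists examined. Of 39 immediate early and AP-1 genes, 16 started in an aged region of 4000 bp or more and 29 in a young one. Over all 21900 protein-coding genes, the background was 0.868% for the aged list (190 genes) and 2.19% for the young list (480 genes). Of the 480 genes, 183 (38.1%) also started in a wide aged region, which is 96.3% of the 190. Every one of the 39 had some region at its start in both lists. The 30 wide young regions that hold their starts had a median coverage of 91.1% (63.5% to 98.2%). Egr1, a zinc finger factor induced within minutes of a stimulus, started in 9602 bp of open chromatin in the aged list and 10331 bp in the young list. The AP-1 gene Jun had 7387 bp in the aged list and 8856 bp in the young list, Junb 7785 and 8594 bp, and Jund 7736 and 8352 bp. Fos had 4766 bp at its start in the aged list and 8573 bp in the young list, which was 96.5% covered by 3 aged regions.

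Several of this group started in a wide region of the young list alone. Zfp36, which destabilises AU-rich mRNAs, started in 2447 bp in the aged list and 13226 bp in the young list, and the young region also holds a tRNA gene. Other aged regions lay on it too, the widest of 5726 bp, so that 90.3% was covered. Ccn1, a matricellular protein, had 2818 bp in the aged list and 9733 bp in the young list, 79.9% covered. Ier2 had 2894 and 7503 bp in the same order, Mafk 1992 and 8168 bp (with an aged region of 4373 bp elsewhere on it), and Klf9 3568 and 9612 bp. Nr4a1, Nr4a2, Btg2, Fosl1, Srf, Klf2, Klf5, Ier5, Maff and Mafg did not start in a wide region of either list.

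Of the 32 identity and quiescence genes, 4 started in a wide aged region and 9 in a wide young region. Myf5, the myogenic factor of committed satellite cells, was wide in both, with 6120 bp in the aged list and 6155 bp in the young list (99.3% covered). Cdh15, the M-cadherin that holds the cell to its fibre, had 4674 and 6184 bp in the same order, Foxo3 4451 and 5324 bp, and Cav1 4417 and 4664 bp. Sdc4 had 1692 bp at its start in the aged list and 14017 bp in the young list. Chrdl2, a secreted BMP antagonist, had 1586 bp in the aged list and 7814 bp in the young list, 66.5% covered by 7 aged regions. Fgfr1, Megf10 and Tenm4 were the other genes that start in a wide region of the young list alone. Pax7, the factor that defines these cells, had 2083 bp in the aged list and 2232 bp in the young list, and Pax3 1490 and 1493 bp. Among 23 genes of myogenic commitment and differentiation, 0 started in a wide aged region and 1, Myod1, in a wide young one (6937 bp, 73.6% covered).

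Of 37 PGE2 and cAMP signalling genes, 1 (2.70%) started in a wide region in the aged list and 3 (8.11%) in the young list, where the shares over all genes were 0.868% and 2.19%. Ptger4, which encodes the EP4 receptor, had 3709 bp at its start in the aged list and 6135 bp in the young list, 86.8% covered by 5 aged regions, with strongest folds of 125 and 184 in their own lists. Adcy7, an adenylyl cyclase, had 1830 bp in the aged list and 4555 bp in the young list, and Gnas, the stimulatory G protein subunit, 2509 and 6012 bp. Creb5 was wide in the aged list (4129 bp) and just under the limit in the young list (3826 bp). Ptger2, the EP2 receptor gene, had no region at its start in either list.

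Of 32 chaperone genes, 0 started in a wide aged region, where the share over all genes was 0.868%, and 5 (15.6%) in a wide young one, where it was 2.19%. All 32 had some region at their start at both ages. The median coverage over their wide regions was 75.1%. Hspa8, the constitutive Hsc70 chaperone, had 3514 bp in the aged list and 11148 bp in the young list, 73.5% covered by 6 aged regions with a gap of 1607 bp. Dnajb1, its co-chaperone, had 1631 bp in the aged list and 4237 bp in the young list, 51.5% covered. Hsp90ab1, a cytosolic Hsp90, had a wide region at each end of the gene, covered at 61.2% and, in the one shared with Slc35b2, at 76.6%. The wide regions of Cct7 and Hspa5 were covered at 82.0% and 93.1%. The inducible Hspa1a and Hspa1b had no wide region. No test sets this list apart from the others: ubiquitous genes had 1 of 28 in the aged list and 6 of 28 in the young list, with coverage between 57.5% at Eif4a1 and 96.5% at Actb.

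Notch, Hes and Id genes gave 3 of 20 in the aged list and 6 of 20 in the young list. Jag1, a Notch ligand, had 5181 bp in the aged list and 5176 bp in the young list, and Hes1, a Notch target, 4880 and 5054 bp. The inhibitors of bHLH factors Id1 and Id3 had 2674 and 2527 bp in the aged list, against 5748 and 8467 bp in the young list. Id2 was wide in the aged list, with 7478 bp in the aged list and 2975 bp as its widest young region. Of 33 inflammation genes, 2 were wide in the aged list and 5 in the young list. Nfkbia, the inhibitor that ends NF-κB signalling, had 3463 bp at its start in the aged list and 11413 bp in the young list, with 40 young summits and 84.9% coverage. Cxcl1, a neutrophil chemokine, had 2151 and 6121 bp in the same order, and Cebpb 4005 and 11739 bp.

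Other muscle transcription factors gave 5 of 37 in the aged list and 8 of 37 in the young list. Nfib had 4608 bp in the aged list and 5002 bp in the young list, and Bcl6 7516 and 13450 bp. Cell cycle and p53 genes gave 3 of 30 and 6 of 30. The D-type cyclin gene Ccnd1 had 783 bp at its start in the aged list and 4319 bp in the young list, 63.5% covered by 5 aged regions, whereas the stress gene Gadd45g had 5226 and 4872 bp. Niche matrix genes gave 2 of 27 and 3 of 27, with Adamts1, a secreted protease, at 5383 bp in the aged list and 7821 bp in the young list. Chromatin regulators gave 1 of 33 and 2 of 33 (Tet3 in both, Smarcd3 in the young list). Endothelial, smooth muscle and glial markers and genes of other organs had none in either list. Fibroblast markers had Col3a1 in the young list (1 of 10). Immune markers had Cd68 (1 of 10), in a region that also holds the start of Mpdu1.

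**Figure D4:**
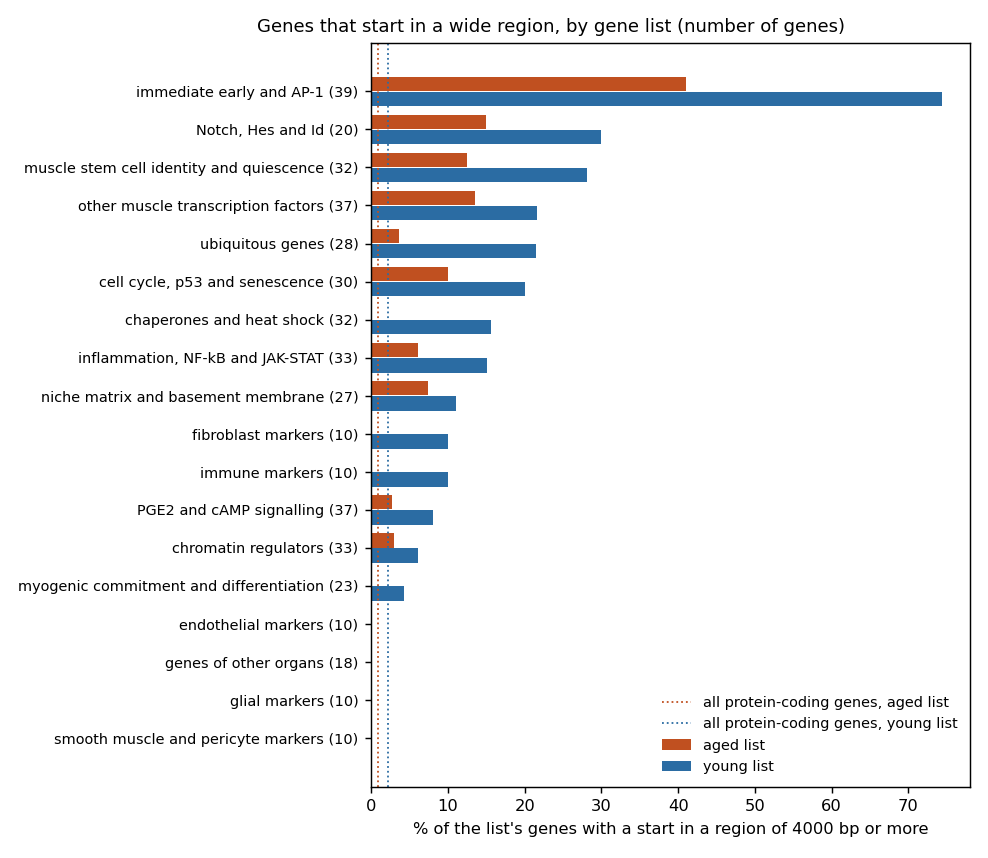
Percent of the genes of each list (number of genes in brackets) that start in a region of 4000 bp or more, in the aged list (orange, upper bar) and the young list (blue, lower bar); dotted lines give all protein-coding genes, 0.868% aged and 2.19% young. Immediate early genes are highest in both lists, at 41.0% aged and 74.4% young, and 4 lists have no such gene.

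Some short genes lay inside a wide region from end to end. Only a gene shorter than its region can do so, and the share over all short genes was not computed. Whole protein-coding genes numbered 54, in 51 regions, with a median length of 2363 bp (455 to 8446). They included the immediate early genes Fos, Jun, Junb, Jund, Egr1, Ier2, Ier3, Dusp1 and Zfp36, the Id genes Id1 and Id3, the stress genes Atf4, Ddit4 and Mt2, and Myod1. Noncoding genes inside were 27 tRNAs, 24 lncRNAs, 22 snoRNAs, 19 miRNAs and 4 snRNAs. A run of 5 tRNA genes lay in a region of 4204 bp on chromosome 19 (93.2% covered), and another run of 5 in one of 4009 bp on chromosome 13 (96.4%). Gas5, a snoRNA host transcript, lay in a region of 9317 bp that was 76.6% covered.

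Of the 19 miRNA genes inside a wide region, 13 were among the 1005 hairpins of the RefSeq sequence table, of which 194 lay in any young region. The others were Mir486, Mir3107, Mir378a, Mir1893, Mir1907 and Mir1938. Mir486, a miRNA abundant in muscle, lay in a region of 5008 bp inside Ank1 that was 72.8% covered by 7 aged regions. Mir378a lay in a region of 4164 bp that holds the start of Ppargc1b and was 100% covered by 1 aged region. Among the 13, the Mir23a, Mir27a and Mir24-2 hairpins share a region of 5503 bp on chromosome 8 near Zswim4, with a 15.3-fold strongest summit, 82.3% covered by 6 aged regions. Mir22 lay in a region of 6026 bp on chromosome 11, with a 92.3-fold strongest summit, 93.4% covered by 1 aged region. The 4 mature products below come from the Mir23a and Mir22 loci and are shown to identify them. Capitals mark the seed (bases 2 to 8), by which a miRNA pairs with its targets, and the 4 seeds differ. MiR-23a is known to repress the ubiquitin ligases of muscle atrophy.
miR-23a-3p: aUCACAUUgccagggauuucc
miR-27a-3p: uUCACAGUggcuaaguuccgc
miR-24-3p: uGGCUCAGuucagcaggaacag
miR-22-3p: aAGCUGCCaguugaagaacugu

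The 5 least covered wide regions had strongest young folds between 5.19 and 11.2 and lay in gene bodies or between genes. The 12 regions under 50% covered included 1 with a gene start (Ndufb10 and Rps2, 48.7%), and 10 of the 12 lay within 50 kb of another wide region. One inside Fgfr1, chr8:25563943-25568344, was the sole wide region with no aged region on it. It was 4402 bp wide and had 13 summits, the strongest 5.37-fold. The region over the body of Hmox1, the inducible haem oxygenase, was 5773 bp wide with 18 summits of at most 5.19-fold and was 3.24% covered, by 1 aged region of 187 bp. A region inside Sik1, a kinase induced by cAMP, was 26.3% covered, while the one at the start of the same gene was 94.4% covered. A region of 5120 bp near Pdpn was 28.4% covered, and one of 4144 bp on chromosome 6, with no protein-coding gene within 100 kb, 20.1%. Over the 18 regions with a strongest fold under 10, the median coverage was 73.7% (range 0 to 100).

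**Figure D5:**
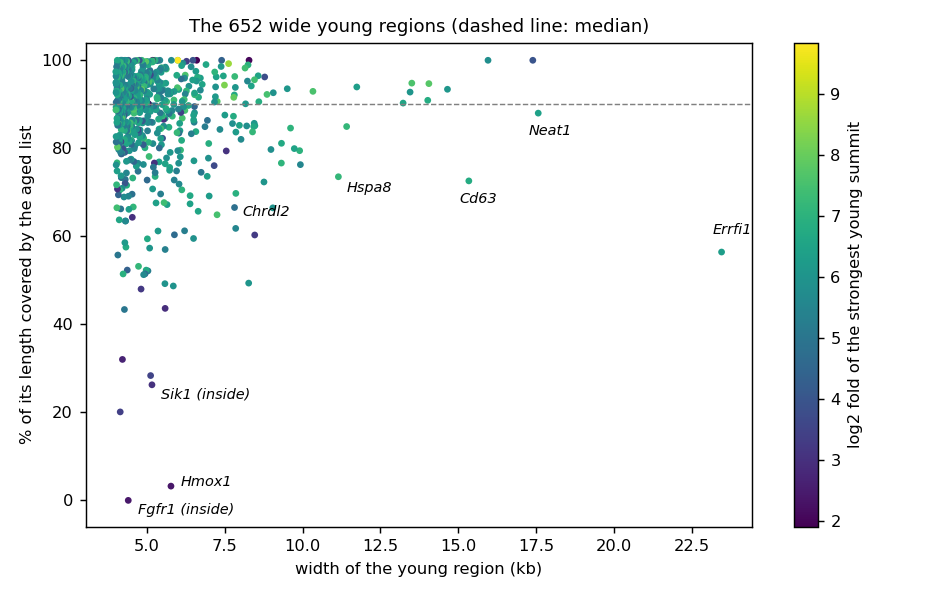
Each of the 652 wide young regions by its width in kb and the percent of its length covered by the aged list, coloured by the log2 fold of its strongest young summit; the dashed line is the median, 90.1%. Named points are Errfi1 (23450 bp, 56.4%), Neat1, Cd63, Hspa8, Chrdl2 and the weak regions of Sik1, Hmox1 and Fgfr1 at 26.3%, 3.24% and 0%.

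Wide regions came in groups at some genes. Of the 652, 143 (21.9%) lay within 50 kb of another, in 60 groups. Fgfr1, a receptor of FGF2, and its neighbour Letm2 had 6 over 68899 bp at chr8:25518209-25587107, covered between 0% and 67.2% and over their summed length 48.1%. Runx1, a transcription factor induced in activated muscle stem cells, had 6 over 93742 bp at chr16:92605540-92699281, covered between 32.0% and 84.9%. Pmepa1, a feedback inhibitor of TGF-β signalling, had 5, covered between 66.5% and 92.9%. On chromosome 6, 4 regions at chr6:31048708-31089785 were covered between 20.1% and 76.3%. The 3 regions at Plxnd1 and the 3 at Septin9 were covered at 83.5% or more and at 77.0% or more.

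A few groups were covered almost in full. The 6 regions at chr1:88228057-88289020, across Mroh2a and Hjurp, were 99.9% covered over their summed length, with strongest folds between 3.74 and 399. At the start of Hjurp, which loads the centromeric histone CENP-A, the strongest summit was 399-fold. Wide aged regions without a wide young region on them flanked this group, at chr1:88211459-88216306 and chr1:88297957-88303529, and were 82.8% and 90.1% covered by the young list. On the unplaced contig JH584304, 4 regions were covered at 100%. The strongest wide region, chr17:39842919-39848909, overlapped the lncRNA gene AY036118 and had a 919-fold summit in the young list. It was covered at 100% by 1 aged region with an 884-fold summit in its own list. Reads from sequences present in several copies may be placed at 1 of them, and the part of copy number in these regions was not tested.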

How the data were processed

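Per the submitters' processing notes, Bowtie2 was the aligner and mm10 (GRCm38) the build. Each age after PGE2 has 1 deposited peak list, in MACS narrowPeak format. Each deposited row gives the authors' fold ratio over background at a summit and its significance, as the deposited −log10 of p and of q. The smallest −log10 q was 2.16 in the aged list and 2.08 in the young list. Not given in the sources used here are caller options, read filters, pooling of libraries and read depth. A list called from more fragments holds longer and more regions at the same threshold.

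Rows that touched or overlapped were merged, and distinct summit positions were counted. Coverage is the part of a young region inside merged aged regions (overlap of at least 1 bp). Gene starts came from RefSeq GRCm38.p6: oriented promoter starts for 17492 of 21900 protein-coding genes, both span ends for the others. Python 3.11.15, numpy 2.4.6, pandas 2.3.3 and scipy 1.17.1 were used, intervals are exact (Clopper-Pearson, or order statistics for medians), and merging and coverage were tested on simulated data. No test between ages was possible with 1 list per age. The wide regions and the 18 gene lists were chosen with earlier results of these data known. Regions named are the 10 widest, the 5 extremes of summit number, height and coverage, the 3 nearest the width limit on either side, and up to 4 of the widest per gene list; other genes of the lists were named after their values were seen. Alternatives tried were other widths, merging, strength limits and start definitions.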

Additional observations from a re-analysis of the deposited data

How the results depend on the processing

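Wide regions numbered 1929 at a minimum of 3000 bp, 278 at 5000 bp and 1060 when rows within 200 bp were merged. Those at least 90% covered were 948 (49.1%) at 3000 bp and 135 (48.6%) at 5000 bp. They were 445 (42.0%) with the wider merging and 243 (37.6%) for equal numbers of the strongest regions. Percentages are of the wide regions in each setting, and the main setting gave 50.2%. Those under 50% covered were 32 (1.66%) at 3000 bp, 7 (2.52%) at 5000 bp and 41 (3.87%) with the wider merging. They were 36 (5.57%) when equal numbers of the strongest regions were compared. Without regions within 50 kb of another, a setting chosen after seeing the data, they were 2 (0.393%). Those overlapped by a wide aged region were 851 (44.1%) at 3000 bp, 76 (27.3%) at 5000 bp and 459 (43.3%) with the wider merging. They were 353 (54.1%) when the 652 widest aged regions were used, also chosen after seeing the data. Median coverage was 87.4% with the wider merging and 86.4% for equal numbers of the strongest regions. The median number of aged regions was 3 at 5000 bp, and the median number of summits 9 at 3000 bp and 16 at 5000 bp. With promoter starts alone, an alternative added after seeing the data, 51.1% held a gene start. The other 42 values computed under alternatives moved by less than the limit set for a change. The counts of 445 and 243 above are among them, so values within that limit were not all close to the main ones. No paired analysis was possible because each age has a single list and no value per library. The unknown depth of both lists limits every comparison of widths, and an uncovered stretch is one not called in the aged list, not one shown to be closed.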
